A study of Rattus norvegicus with 2 samples.

Results

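Cadherins were examined in cultured rat astrocytes, the main supporting glia of the brain, on 1 array of cells expressing 5ppase and 1 array of control cells. The family was taken as 10 genes chosen by name: the type I classical cadherins Cdh1, Cdh2, Cdh4 and Cdh15, the type II (atypical) cadherins Cdh6, Cdh8, Cdh10, Cdh11 and Cdh22, and Cdh13, which is held in the membrane by a lipid anchor. Every probe set annotated to 1 of these symbols alone was used. This gave 17 probe sets for 9 genes, out of 20832 probe sets with a single symbol for 14218 genes in all. Cdh4 was not analysed here. With 1 array per group there were no replicates and no test, so each difference describes these arrays only and carries no p-value.

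Both cultures came from the hippocampus of Sprague-Dawley rats at embryonic day 18, with a genotype given as normal. The 5ppase cells carried a vector that makes 5ppase together with a red fluorescent protein from 1 message (5ppase-IRES2-RFP), and the control cells carried a vector with the fluorescent protein alone (IRES2-RFP). The series sets absent calcium signalling (5ppase) against active signalling (control). The labels spell out neither 5ppase nor the promoter of the vectors, the share of cells that took them up or the number of animals. A common reading is a phosphatase that removes the 5-phosphate of inositol trisphosphate, the messenger that opens calcium stores.

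Cadherins are calcium-binding cell adhesion proteins. Their repeated outer domains become rigid when they bind calcium and pair with cadherins on the neighbouring cell. The inner tail of type I and type II members binds beta-catenin and p120-catenin, and alpha-catenin links this complex to actin. N-cadherin (Cdh2) is the main classical cadherin of neural tissue and joins astrocytes to each other and to neurons. T-cadherin (Cdh13) has no inner tail and so does not bind catenins; it is known as a receptor for adiponectin, mostly from vascular and muscle cells, and from work on neurite growth.

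The arrays gave a signal per probe set on a linear scale. Signals had a median of 109 on the 5ppase array and 107 on the control array, and both had a trimmed mean of 500.2. A signal of 62.0, the 40th percentile of both arrays pooled, served as a floor, and a gene was compared where its brightest probe set passed the floor on both and was at least as bright as the 60th percentile (208) on at least 1 of them. Of the 9 cadherin genes 3 were compared (Cdh13, Cdh11 and Cdh2), 3 passed the floor on both but were dim (Cdh6, Cdh15 and Cdh22) and 3 lay under the floor on both (Cdh1, Cdh8 and Cdh10). The number of arrays limits the precision, and for dim probe sets the low signal does too. The probe set spread, an SD of 0.26 for the log2 ratio of 1 probe set, was taken from the 2 brightest compared probe sets of 1883 genes. It is the SD of their difference divided by the square root of 2. It covers noise that differs between probe sets, but not noise shared by a whole array or differences between cultures. Ratios below are 5ppase over control.

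**Figure D1:**
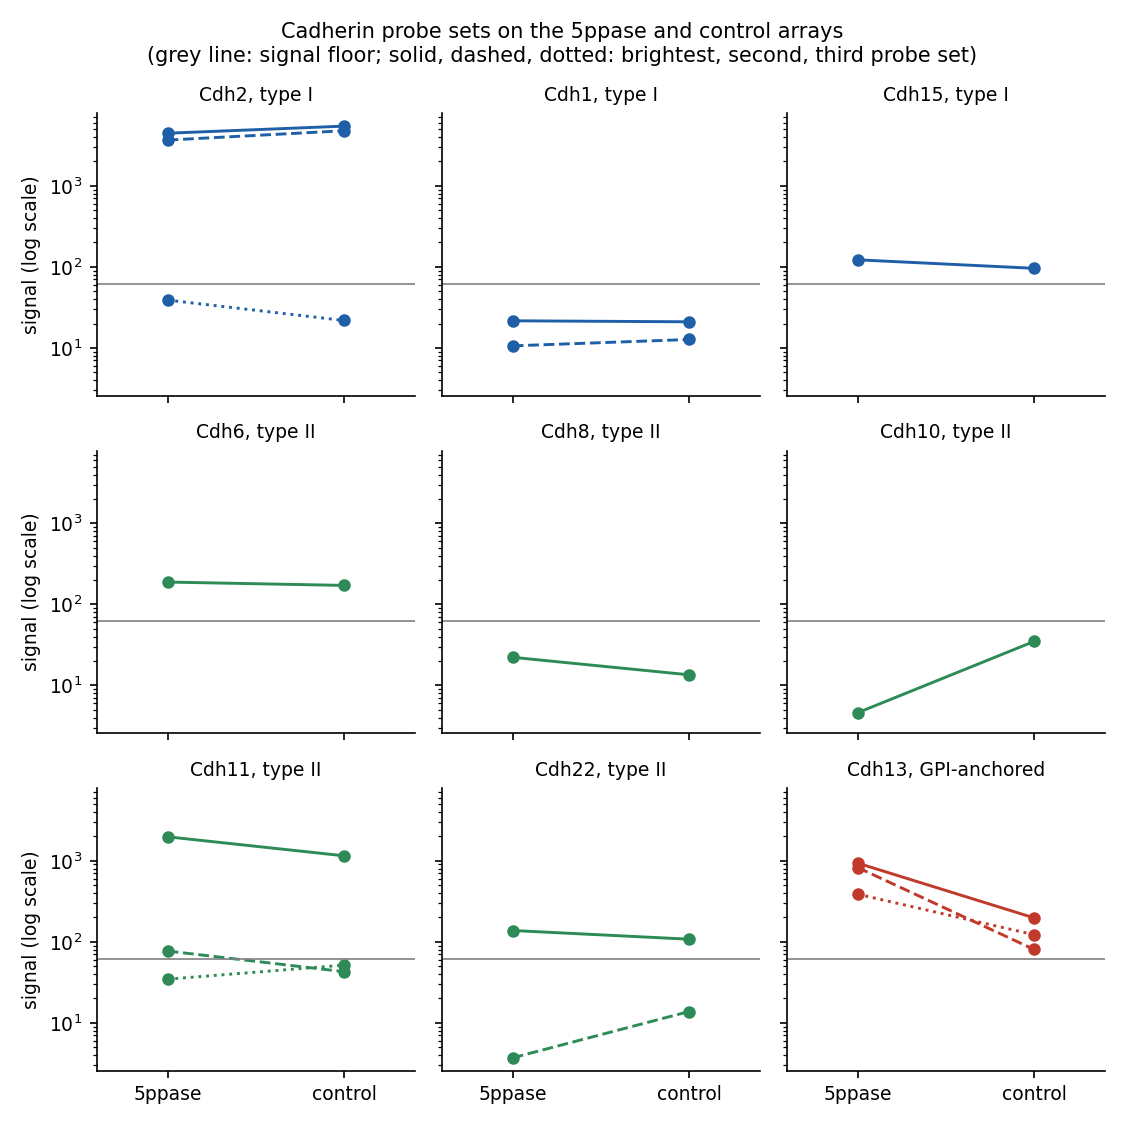
Signals of the 17 cadherin probe sets (log scale) on the 5ppase and control arrays, 1 panel per gene; lines join the same probe set, solid for the brightest, then dashed, then dotted, and the grey line is the floor of 62.0. All 3 Cdh13 probe sets are higher on the 5ppase array, from 387 to 935 there against 80.4 to 197 on the control array, and both bright Cdh2 probe sets are lower there.

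T-cadherin had the largest difference of the family, with a higher signal in 5ppase at each of its 3 probe sets. The brightest (1375719_s_at) gave 935 in 5ppase and 197 in control, 4.74-fold higher (log2 ratio 2.25). The second (1369425_at) gave 824.5 in 5ppase and 80.4 in control, 10.3-fold higher (3.36). The third (1373102_at) gave 387 in 5ppase and 122 in control, 3.16-fold higher (1.66). At each probe set the 5ppase signal was the higher and the control signal lay between 80.4 and 197, not far above the floor of 62.0. The 3 probe sets shared a direction but not a size, their log2 ratios spanning 1.70, which is wide beside the probe set spread of 0.26. With control signals this low, the direction is better fixed than the size.

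Cdh13 ranked 2 among the 8261 compared genes by ratio. Genes above the floor on 1 array only were not compared and so were not ranked. Of these genes 1.5% had a signal at least 2-fold higher in 5ppase and for 1.42% it was 2-fold lower or more, 2.92% in all. Its 3 probe sets reached the signal of 208 on the 5ppase array only, so they counted as compared through the array on which they were high. In RNA from a whole culture, fewer or more cells of a type and less or more RNA per cell cannot be told apart, here and for every gene below. The genes on either side of Cdh13 in the RefSeq gene order (GRCr8), also looked up after its values were seen, did not share its ratio. Mphosph6 gave 1916 in 5ppase and 2516 in control (-0.39), and Hsbp1 gave 4984 in 5ppase and 4928 in control (0.02).

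The 3 compared genes nearest to Cdh13 in log2 ratio were a DNA polymerase alpha subunit, a tenascin of the matrix and a mitotic cyclin. Provisional loci, with LOC or RGD symbols, were left out of this search. Pola2 gave 323 in 5ppase and 70.9 in control (2.19), Tnn gave 541 in 5ppase and 123.5 in control (2.13) and Ccnb1 gave 288.5 in 5ppase and 65.9 in control (2.13). Like Cdh13, all 3 reached the signal of 208 on the 5ppase array only, so they counted as compared through the array on which they were high. The control signals of Pola2 and Ccnb1 lay just above the floor of 62.0. With 2 arrays, likeness rests on a single ratio per gene.

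N-cadherin was slightly lower in 5ppase. Its brightest probe set (1387259_at) gave 4462 in 5ppase and 5456.5 in control, 1.22-fold lower (log2 ratio -0.29). The second (1368642_at) gave 3673 in 5ppase and 4787 in control, 1.30-fold lower (-0.38). These 2 probe sets, both far above the floor, differed from each other by 0.09 in log2 ratio. The third (1378271_at) was under the floor at 38.9 in 5ppase and 21.8 in control and has no ratio.

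The N-cadherin difference was of a size that many compared genes had. Of the compared genes 18.6% had a lower ratio than Cdh2. Of the 1883 genes with at least 2 compared probe sets, every such probe set was lower in 5ppase in 33.2%, and at least as low as the -0.29 of Cdh2 in 8.28%. The size of -0.29 is close to the probe set spread of 0.26, so the shared sign of both probe sets is all the internal repeat there is.

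Set against each other, Cdh13 had a log2 ratio 2.54 above that of Cdh2, so its fold was 5.80 times that of Cdh2. Over the 6 pairings of a compared Cdh13 probe set with a compared Cdh2 probe set the difference ran from 1.95 to 3.74. Its sign was fixed by the signs of the single probe sets given above, so the pairings show the range of its size only. The gap was almost wholly on the side of T-cadherin. These are differences of ratios; the signals of different probe sets are not on a shared scale, so the arrays do not say which of the 2 cadherins was more abundant.

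**Figure D2:**
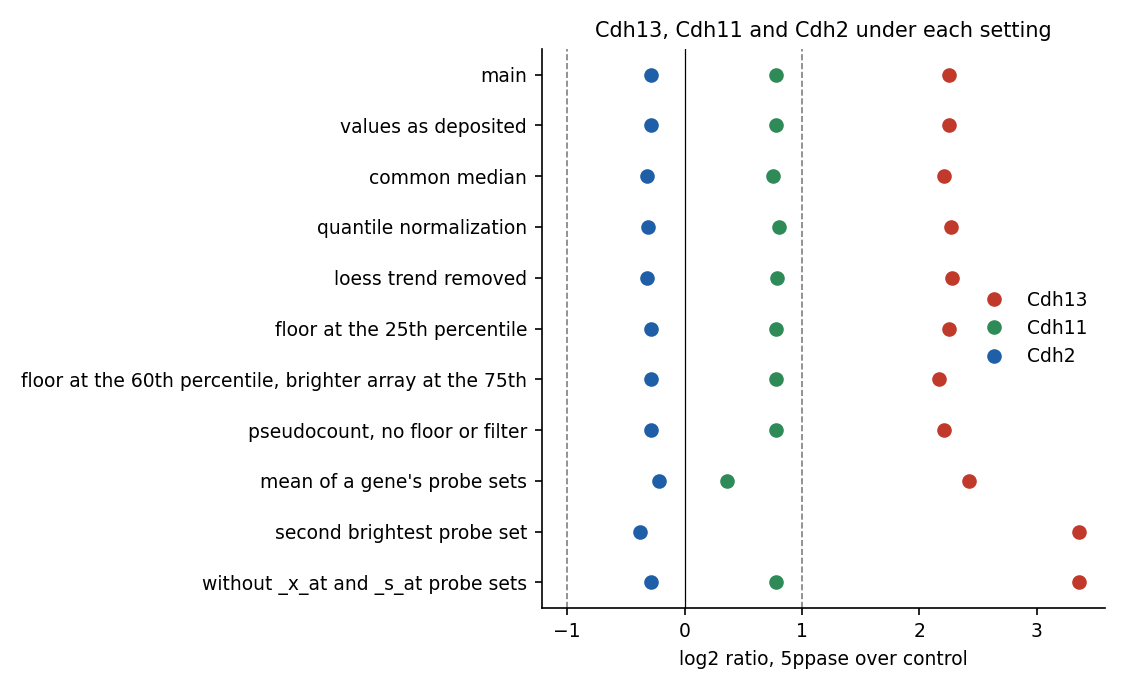
Log2 ratio of 5ppase over control of Cdh13, Cdh11 and Cdh2 (points) under the main setting and each of 10 alternatives in scaling, floor and choice of probe set, with dashed lines at 2-fold. Cdh13 lies between 2.17 (a bound, its control signal being raised to the higher floor) and 3.36, Cdh11 between 0.36 and 0.80, with no value at second probe sets, and Cdh2 between -0.38 and -0.22.

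**Figure D3:**
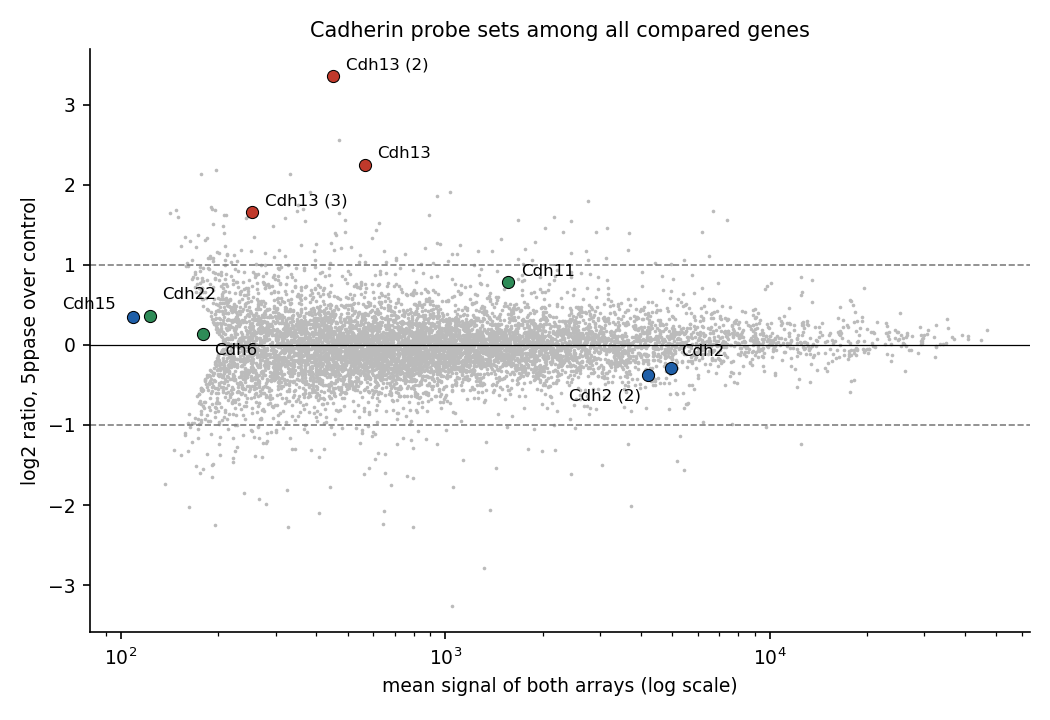
Log2 ratio of 5ppase over control against the mean signal of both arrays (log scale) for the 8261 compared genes (grey) and for the cadherin probe sets above the floor on both arrays (coloured; the number in brackets marks a second or further probe set), with dashed lines at 2-fold. The Cdh13 probe sets lie at 1.66, 2.25 and 3.36, Cdh11 at 0.78 and the Cdh2 probe sets at -0.29 and -0.38.

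Among the type II cadherins, Cdh11 was higher in 5ppase. Cdh11, known mostly from bone and other mesenchymal cells, gave 1977 in 5ppase and 1152 in control at its brightest probe set (1388936_at), 1.72-fold higher (log2 ratio 0.78). Its other probe sets do not serve as a repeat. The second gave 77.0 in 5ppase and 42.8 in control, above the floor on 1 array only, and the third gave 34.6 in 5ppase and 51.5 in control, under the floor on both and with the opposite order. Of the compared genes 2.82% had a higher ratio than Cdh11. Cdh11 lay 1.07 above Cdh2 and 1.47 below Cdh13 in log2 ratio.

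The 3 dim members were all slightly higher in 5ppase by amounts common at such signals. Cdh6 (K-cadherin), a type II cadherin of developing kidney and of boundaries in the embryonic brain, gave 188 in 5ppase and 171 in control (log2 ratio 0.14). Cdh22, a type II cadherin of the brain, gave 138 in 5ppase and 108 in control (0.36), while its dimmer probe set gave a signal below the floor, 3.7 in 5ppase and 13.8 in control. Cdh15 (M-cadherin), the type I cadherin of muscle precursors that is also made by cerebellar neurons, gave 122 in 5ppase and 96.0 in control (0.35). Of the 1519 genes that were likewise dim but above the floor on both arrays, 43.4% had a ratio at least as far from 0 as that of Cdh15 and 75.4% as far as that of Cdh6. These 3 ratios therefore stand within the ordinary run of dim genes.

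The other members had no signal above the floor at any probe set. E-cadherin (Cdh1), the type I cadherin of epithelia, gave 21.6 in 5ppase and 21.0 in control at its brighter probe set and 10.6 in 5ppase and 12.7 in control at the other. Cdh8 and Cdh10, type II cadherins of neuronal circuits, gave 22.2 and 4.6 in 5ppase against 13.5 and 34.9 in control. No fold is given for them, and a signal under the floor does not show that a transcript is absent.

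Over the 6 members whose mean signal lay above the floor, 5 had ratios above 0 and 1, Cdh2, below 0. Their median log2 ratio was 0.35, beside -0.012 over the 10255 genes measured in this way, of which 48.6% had a positive ratio. Of the 3 compared members, 1 (Cdh13) was at least 2-fold higher in 5ppase and 2 (Cdh13 and Cdh11) at least 1.5-fold higher, where 5.25% of all compared genes were higher and 5.46% lower by that much. None of the 3 was 1.5-fold lower. Of 7 Cdh genes on the array outside the chosen 10, 1 was measured, Cdh3, which was more than 1.5-fold lower and is given below. The members that passed the signal filter are few and not a sample of the family.

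Other members of the wider cadherin superfamily, from a list of 42 genes of which 28 were on the array, were for the most part under the floor, with 19 of the 28 below it on both arrays. Among 8 measured genes 6 were lower and 2 higher (median log2 ratio -0.59), but which genes could be compared depended on the direction. Celsr2, Dchs1 and Cdh3 reached the signal of 208 on the control array only, so they passed the filter through the array on which they were high. Celsr2, a seven-pass cadherin of planar cell polarity, gave 152 in 5ppase and 304 in control, 2.01-fold lower. Dchs1 and Fat4, giant cadherins that bind each other as ligand and receptor, gave 112 and 251 in 5ppase against 220.3 and 407 in control (-0.98 and -0.70). P-cadherin (Cdh3), the gene next to Cdh1 in the RefSeq order, gave 121 in 5ppase and 232 in control (-0.94).

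The 2 with a higher signal in 5ppase were Fat1, a giant cadherin that influences actin at cell edges, and the protocadherin Pcdh18, the last named after its values were seen. Fat1 gave 15438 in 5ppase and 9771 in control (0.66), and Pcdh18 gave 305.5 in 5ppase and 251.5 in control (0.28). Calsyntenin 1 (Clstn1), a cadherin-like cargo adaptor, gave 6302 in 5ppase and 6662 in control (-0.08). Celsr2 stood at the 2-fold line. With quantile normalization or with a loess trend removed 0 genes of this list were 2-fold lower, and with a common median 2 were. Of all compared genes 1.42% were 2-fold lower or more under the main setting.

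The catenins that tie classical cadherins to the cytoskeleton had log2 ratios between -0.83 and 0.07. Of 9 measured catenin genes 2 had ratios above 0 and 7 below, and their median was -0.15. Beta-catenin (Ctnnb1), which binds the cadherin tail, gave 25314.5 in 5ppase and 25630 in control (-0.02), and 10545 in 5ppase and 9542 in control at its second probe set (0.14). Alpha-catenin (Ctnna1), the link to actin, gave 9141 in 5ppase and 11647 in control (-0.35), and p120-catenin (Ctnnd1), which keeps cadherins at the surface, gave 732 in 5ppase and 898 in control (-0.29). Both ratios are about the size of the Cdh2 ratio and close to the probe set spread.

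Delta-catenin (Ctnnd2), the neural relative of p120-catenin, had the lowest ratio among the catenins, at 336 in 5ppase and 597 in control (-0.83). The alpha-catenin relative Ctnnal1, named after its values were seen, gave 649 in 5ppase and 951 in control (-0.55). Neural alpha-catenin (Ctnna2) was dim, at 77.4 in 5ppase and 76.6 in control (0.01).

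Among the actin linkers and scaffolds of the junction, the 12 measured genes split evenly, 6 higher and 6 lower (median 0.07). The 2 of them at least 1.5-fold higher were actin-binding proteins recruited to adherens junctions. Lima1 (EPLIN), which joins alpha-catenin to actin filaments, gave 3132.5 in 5ppase and 1742 in control (0.85). Vinculin (Vcl) gave 11987 in 5ppase and 7412 in control (0.69), and 7798 in 5ppase and 5725 in control at its second probe set (0.45). Alpha-actinin 1 (Actn1) gave 14395 in 5ppase and 11664 in control (0.30), and the same ratio at its second probe set. Over the whole list of cytoplasmic partners 14 of 29 measured genes were higher and 15 lower, or 11 and 18 with a common median. Among 27 compared genes 2 were higher and 1 lower by 1.5-fold or more. Over all compared genes 5.25% were higher and 5.46% lower by that much, so the list is near the share of the whole array.

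Proteases and inhibitors that act on cadherins and on the matrix around them included 1 large difference. Mmp3 (stromelysin 1), a matrix protease that can cut E-cadherin, gave 112 in 5ppase and 545 in control, 4.85-fold lower (-2.28). It reached the signal of 208 on the control array only, so it passed the filter through the array on which it was high. Adam15, a metalloprotease of the sheddase family, gave 1689 in 5ppase and 1003 in control (0.75). Pcsk6, a proprotein convertase, gave 426 in 5ppase and 278 in control (0.62). The inhibitors Timp2 (20984 in 5ppase and 15777 in control, 0.41) and Timp3 (24092 in 5ppase and 22349 in control, 0.11) were within 1.5-fold. Adam10, the main sheddase of N-cadherin, was named after its values were seen and gave 249 in 5ppase and 259 in control (-0.05). The 15 measured genes comprised 8 higher and 7 lower ones (median 0.11).

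Transcription factors known for switching cells between cadherins in development went different ways. Zeb2, a repressor of E-cadherin, gave 1360 in 5ppase and 567.5 in control (1.26), and 568 in 5ppase and 324 in control at its second probe set (0.81). Twist1, also a repressor of E-cadherin and an inducer of N-cadherin in other cells, gave 627 in 5ppase and 1069 in control (-0.77), and 208 in 5ppase and 337 in control at its second probe set (-0.70). For both factors the second probe set had the sign of the first.

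The E-box binding factor Tcf4 gave 17141 in 5ppase and 16194 in control (0.08), and the neural stem cell factor Sox2 gave 3377 in 5ppase and 4863 in control (-0.53), and 1231 in 5ppase and 2163 in control at its second probe set (-0.81). Snai1, named after its values were seen, gave 406 in 5ppase and 377 in control (0.11). The list had 5 of 9 measured genes higher and 4 lower. Among its 8 compared genes 1 was higher and 1 lower by 1.5-fold or more, or 2 lower with a common median. Over all compared genes 5.25% were higher and 5.46% lower by that much.

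The adiponectin system and other partners reported for T-cadherin showed no difference of 1.5-fold in either direction among 7 compared genes. Of all compared genes 10.7% differed by that much, so none among so few is not unusual. The 8 measured genes comprised 3 higher and 5 lower ones (median -0.01), or 4 and 4 after quantile normalization or removal of a loess trend. The chaperone Hspa5 gave 11960 in 5ppase and 12381 in control (-0.05) and the integrin Itgb1 gave 10334.5 in 5ppase and 8356 in control (0.31). Named after their values were seen, the adiponectin receptors Adipor1 and Adipor2 gave 4623 and 549 in 5ppase against 4661 and 728 in control, and adiponectin itself (Adipoq) was under the floor, at 5.6 in 5ppase and 32.3 in control.

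**Figure D4:**
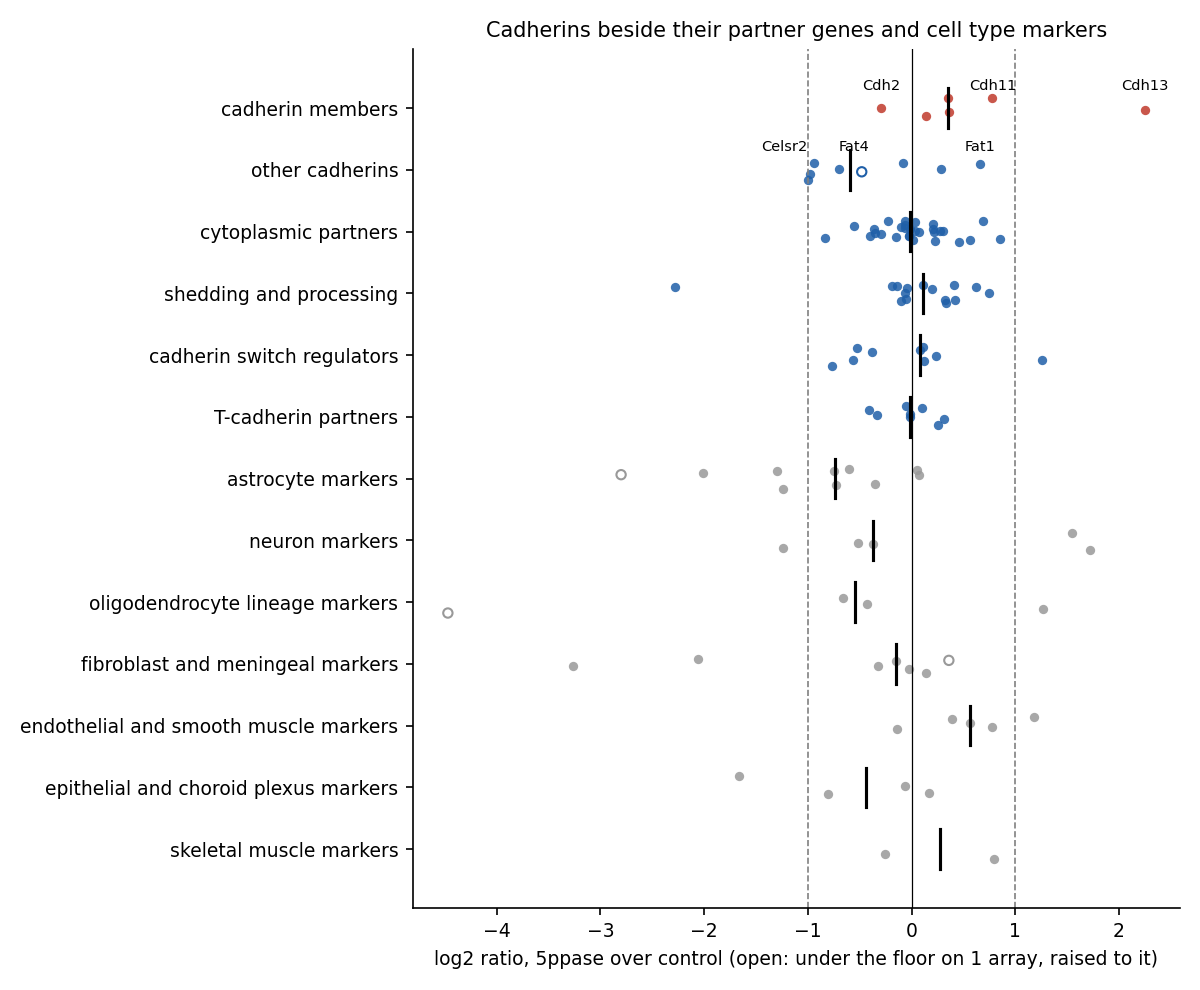
Log2 ratio of 5ppase over control for the measured genes of each list (points; open points were under the floor on 1 array and were raised to it, which understates their size), with the list median as a black bar and dashed lines at 2-fold. Cdh13 lies at 2.25, above every partner gene plotted, while the medians of the cytoplasmic, protease, transcription factor and T-cadherin partner lists lie between -0.01 and 0.11.

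Markers of the cell types that a hippocampal culture can hold also differed between the arrays, within each list in both directions. Gfap, the astrocyte filament protein, was bright on both, at 7408 in 5ppase and 17525 in control (-1.24). Of 12 astrocyte markers on the array 10 were measured, 8 lower and 2 higher, and with quantile normalization 9 were lower. Of all measured genes 48.6% had a positive ratio. The 2 higher markers were S100b and Gja1, with log2 ratios of 0.05 and 0.07. The list had a summed signal of 33948 in 5ppase and 55981 in control, and Gfap made the largest single part of that difference. Aqp4 was under the floor in 5ppase, at 25.1 there and 432 in control. Slc1a2 was under the floor on both arrays. Of 11 endothelial and smooth muscle markers 5 were measured, 4 higher and 1 lower, with a summed signal of 57508 in 5ppase and 43289 in control. The endothelial genes Pecam1, Kdr, Tek, Cldn5 and Vwf were all under the floor on both arrays. Flt1, also endothelial, was dim but above the floor on both, at 127.5 in 5ppase and 74.1 in control. Its second probe set had the opposite order, at 63.3 in 5ppase and 88.1 in control. The sum comes almost wholly from smooth muscle genes such as Tagln and Acta2.

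Of 12 fibroblast and meningeal markers 7 were measured, 2 higher and 5 lower, with a summed signal of 85291 in 5ppase and 92253 in control. That sum comes mostly from the collagens Col1a1, Col1a2 and Col3a1, with log2 ratios of -0.02, -0.32 and 0.14. Mgp (199 in 5ppase and 1902 in control) and Igfbp5 (530 in 5ppase and 2218 in control) were each more than 2-fold lower. Lum and Dcn were under the floor on both. Of 12 neuron markers 5 were measured, 2 higher and 3 lower, with a summed signal of 13250 in 5ppase and 6814 in control. The difference of that sum comes from Stmn2 (11065.5 in 5ppase and 3766 in control). Tubb3 was also higher, at 290 in 5ppase and 87.9 in control, and reached the signal of 208 on the 5ppase array only. Gad1 (422 in 5ppase and 998 in control) and Map2 (1210.1 in 5ppase and 1737 in control) went the other way. So did the dim Elavl3 (90.6 in 5ppase and 117 in control). Rbfox3 and Snap25 were under the floor on both. Of 9 oligodendrocyte lineage markers 4 were measured, 1 higher and 3 lower, with a summed signal of 2213 in 5ppase and 3826 in control. Most of that difference is Cldn11 (47.2 in 5ppase and 1371 in control), and Cspg4 went the other way (629.5 in 5ppase and 261.5 in control). Epithelial and choroid plexus markers summed to 828 in 5ppase and 1667 in control over 8 genes, a difference that is nearly all Ocln (384 in 5ppase and 1212 in control), with Epcam and Ttr under the floor on both. Skeletal muscle markers summed to 4174 in 5ppase and 2453 in control over 6 genes, nearly all of it from Acta1, with Myod1 under the floor on both. The part of these cell type differences in the Cdh13 and Cdh11 ratios was not tested.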

How the data were processed

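Total RNA from 1 5ppase and 1 control culture was labelled as biotinylated cRNA from 6 ug and hybridised to single-colour Affymetrix rat arrays, per the labels' protocols. The values the authors deposited are linear intensities, 1 per probe set. The submitters' processing notes name MAS5; no version or setting was given. Samples were grouped by title. The trimmed means of the arrays (2% off each end) were set equal, which changed them by less than rounding.

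Of 31099 probe sets 20832 had 1 symbol in the platform annotation, 436 had several and 9831 had none there; of the first, 20764 matched a rat RefSeq gene table (GRCr8, for names and gene order only). A gene took its probe set of highest mean signal. Signals under the floor (62.0) were raised to it before log2, which understates ratios of dim genes. Measured means a mean signal above the floor. No detection calls were used.

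Named were every cadherin member and probe set, list genes at least 1.5-fold apart among compared genes and the 2 brightest of each list. Gfap and 5 catenins were named too, as were the 3 genes nearest to Cdh13, provisional loci left out. Marker genes other than Gfap were picked after their values were seen, and others are marked. The members and lists were chosen with earlier results of these data known. The 11 alternatives covered scaling, floor, probe set choice and threshold. The procedure was tested on simulated data with 200 changed genes. The simulated noise had the same size at all signals, so it does not test ratios at signals near the floor. Python 3.11.15, numpy 2.4.6, pandas 2.3.3 and statsmodels 0.14.6 were used.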

Additional observations from a re-analysis of the deposited data

How the results depend on the processing

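Over 10 alternatives the log2 ratio of Cdh13 stayed positive (2.17 to 3.36) and that of Cdh2 negative (-0.38 to -0.22). Over 9 alternatives the ratio of Cdh11 stayed positive (0.36 to 0.80). The lowest Cdh11 value and the Cdh2 value of -0.22 are means over all probe sets of the gene. Each mean takes in a probe set under the floor on both arrays, raised to it on both, which draws the mean towards 0. The Cdh11 mean also takes in its probe set above the floor on 1 array only. The difference between Cdh13 and Cdh2 was 3.74 at second brightest probe sets and 3.65 without _x_at and _s_at probe sets, because both choices take the Cdh13 probe set with the ratio of 3.36, and otherwise 2.46 to 2.65. Raising the floor to the 60th percentile left 3 members measured with a median of 0.78, and 0 of those compared were 2-fold apart, since the control signal of Cdh13 then lay under the floor and its ratio became a bound. With second probe sets 2 members were measured, with a median of 1.49. With a pseudocount of 6.4 in place of floor and filter 2 members were 2-fold apart, the added one being Cdh10 with signals under the floor, and with a 1.5-fold threshold 2 were. Over all genes 241 of 8261 were 2-fold apart (2.92%), beside 122 of 5696 at the higher floor (2.14%), 2087 of 14218 with the pseudocount and no filter (14.7%) and 65 of 1883 at second probe sets (3.45%), and 885 of 8261 were past 1.5-fold (10.7%). No paired analysis was possible because each group holds 1 array. Signal over background limits Cdh13 in control and all dim members.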
